A study of Mus musculus with 9 samples.

Results

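Crypt base columnar cells are the dividing stem cells of the intestinal epithelium, and 10 genes by which they are usually recognised were followed here: Lgr5, Olfm4, Ascl2, Smoc2, Gkn3, Slc12a2, Tnfrsf19, Rgmb, Cdca7 and Msi1. Each gene was found in the deposited tables through the symbol of its Ensembl identifier, which gave 10 of 29288 genes. All 10 passed the filter on low counts that left 18933 genes for testing.

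To ask how intestinal epithelial cells (IECs) respond to activated natural killer T (NKT) cells, RNA was sequenced from crypt cells of the proximal small intestine of female wild-type C57BL/6J mice. NKT cells were activated by an intraperitoneal injection of 2 µg αGalCer (α-galactosylceramide, the lipid antigen that they recognise on CD1d), control mice were given phosphate-buffered saline (PBS), and there were 3 libraries each of control (PBS, 18 h), 18h-αGal and 72h-αGal. Live cells were sorted as EpCAM+ and negative for Ter119, CD31 and CD45, a gate that keeps every epithelial lineage of the crypt, so stem cells were a part of each library and not the whole of it. No mouse was sampled 72 h after PBS, so in the 72h-αGal group the treatment and the time after injection cannot be told apart.

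The stem cells sit between Paneth cells at the crypt base, renew themselves and feed the transit-amplifying cells from which the absorptive and secretory lineages arise. Wnt ligands from Paneth cells and from the stroma beneath, amplified by R-spondins, keep them in this state, and cells that leave the base lose the programme as they differentiate. Some of the 10 genes act in that signalling (Lgr5, Ascl2, Tnfrsf19), whereas others encode secreted products (Olfm4, Smoc2, Gkn3), a transporter (Slc12a2), a coreceptor of another pathway (Rgmb) or nuclear and RNA-binding proteins (Cdca7, Msi1).

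Total counts ranged from 8887861 to 32722293 per library, and the shallowest control and the shallowest 18h-αGal library were both replicate 3. These libraries held the lowest normalised count of their group for 10 of 10 stem cell markers. In the 72h-αGal group, replicate 3 was the deepest library and held the highest value for 10 of 10. Marker levels did not follow depth throughout. Control replicate 1, the deepest library of the series, lay below control replicate 2 for every marker but Ascl2. The shallowest 72h-αGal library, replicate 1, lay above replicate 2 for every marker but Gkn3, Tnfrsf19 and Rgmb. The epithelial identity of the sort was plain, with 74665 to 95403 normalised counts summed over 6 pan-epithelial genes against 357 to 815 over the detected immune genes and 29 to 97 over the detected stromal genes. Levels are given as normalised counts, in which the raw count is divided by a factor for the depth of each library, and tests were run on the raw counts with edgeR's quasi-likelihood test, with p-values adjusted by Benjamini-Hochberg over all 18933 genes and called under 0.05. Such a p measures the difference against the spread between the libraries of a group.

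At 18 h after αGalCer, Gkn3 fell 14.6-fold and was the only marker of the 10 called, against a background of 2.69% of all tested genes called lower. Of the 10 log2 fold changes, 9 lay below 0, compared with 52.4% over all genes, and the median of the 10 was -1.06 where the median of all genes was -0.03. At 72 h, 0 of 10 were called against control, and the median was 0.12. In 4 of the 10 genes (Olfm4, Gkn3, Slc12a2 and Tnfrsf19) every 18h-αGal library lay below every control library, a pattern that 12.3% of all genes had. At an unadjusted p under 0.05, 4 of 10 were lower (Gkn3, Slc12a2, Tnfrsf19 and Rgmb), compared with 10.3% of all genes, and DESeq2 called 2 of 10, against 4.42%. In bulk RNA of this kind, fewer stem cells and less of each transcript per stem cell cannot be told apart.

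**Figure D1:**
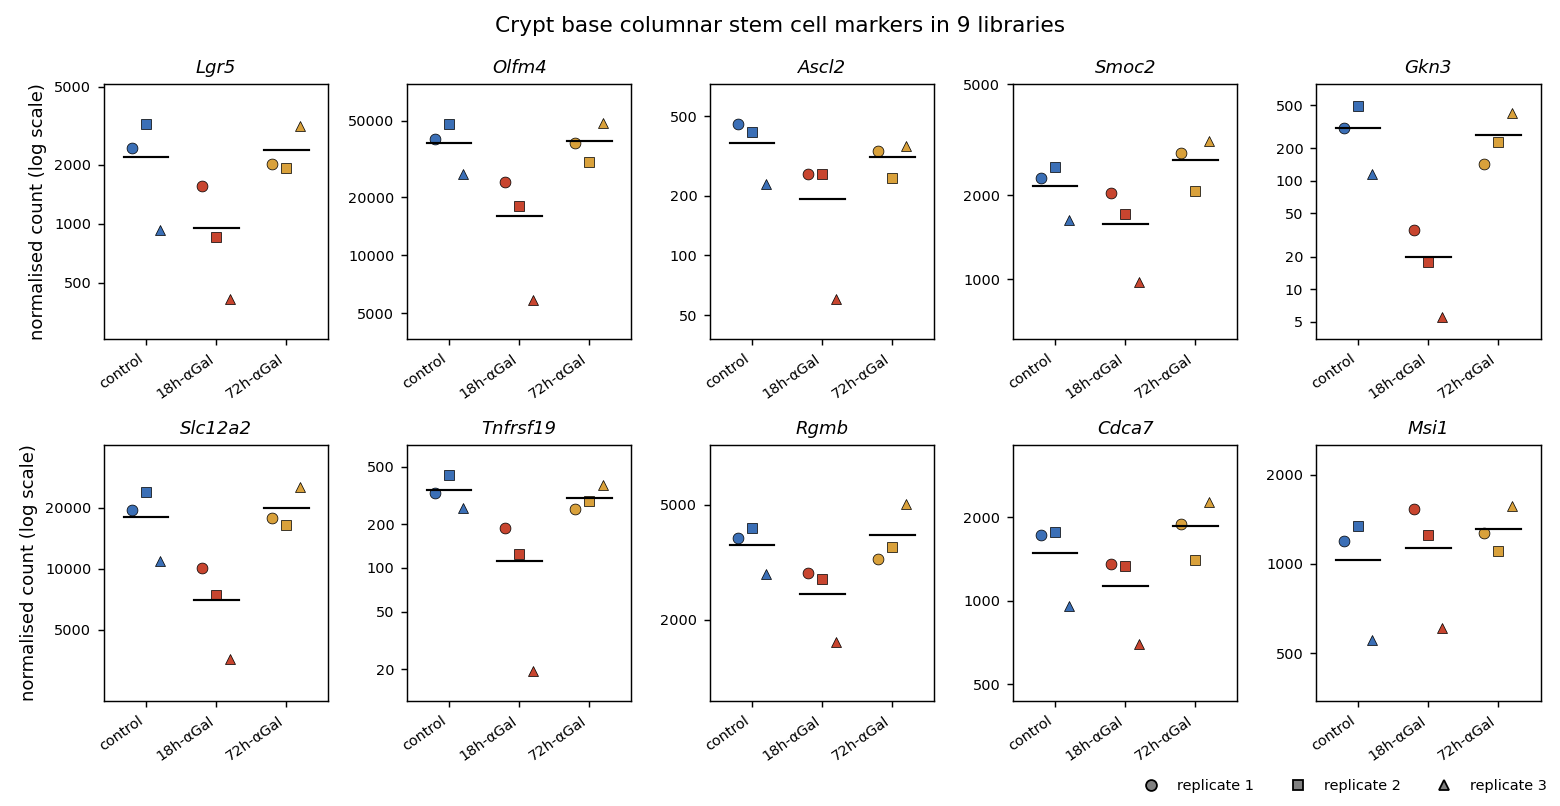
Normalised count (log scale, a separate range for each gene) of the 10 markers in the 9 libraries, with a symbol for each replicate and a bar at the group mean. The Gkn3 panel shows the 18h-αGal libraries between 5.519 and 35.31, below all others, while in the Msi1 panel the 3 groups lie over each other.

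Lgr5 encodes the R-spondin receptor that defines the crypt base columnar cell (ENSMUSG00000020140, chromosome 10, 115286216 to 115423685 on the minus strand of GRCm39). Its normalised counts were 2424.5, 3240.5 and 931.9 in the controls, 1563.7, 857.9 and 411.2 in the 18h-αGal libraries, and 2007.4, 1931.4 and 3154.0 in the 72h-αGal libraries. The control library with the lowest value fell inside the 18h-αGal range, so the groups overlapped, and within each of them the highest library was over 3 times the lowest (3.477-fold in controls, 3.803-fold in 18h-αGal). The log2 fold change at 18 h was -1.21 ± 0.62 (SE, n = 3 per group; 95% interval -2.71 to 0.29; edgeR adjusted p = 0.344). At 72 h it was 0.11 ± 0.61 (interval -1.36 to 1.59; edgeR adjusted p = 0.999).

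Ascl2 encodes the basic helix-loop-helix factor that acts with Wnt signals to hold the stem cell state (ENSMUSG00000009248, chromosome 7, 142520564 to 142523006, minus strand). The controls held 456.4, 416.7 and 228.2 normalised counts, the 18h-αGal libraries 257.9, 257.8 and 60.71, and the 72h-αGal libraries 335.9, 246.1 and 354.7. Control replicate 3 lay between the 18h-αGal values, and the log2 difference was -0.92 ± 0.46 (edgeR adjusted p = 0.286). At 72 h it was -0.23 ± 0.45, with overlapping groups.

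Tnfrsf19, also called TROY, is a receptor of the tumour necrosis factor receptor family and a Wnt target (ENSMUSG00000060548, chromosome 14, 61201283 to 61284366, minus strand). Control libraries held 331.3, 440.4 and 261.5 normalised counts, 18h-αGal libraries 190.4, 125.8 and 19.32, and 72h-αGal libraries 254.8, 288.4 and 372.4. All 3 18h-αGal libraries lay below all controls, but they spread 9.86-fold among themselves, the widest range of any marker in that group. The log2 fold change was -1.58 ± 0.59 (interval -2.91 to -0.25), which did not pass the adjusted threshold (edgeR adjusted p = 0.161). With the library of 19.32 left out, the difference was -1.11 and passed (edgeR adjusted p = 0.0436). That library lay farthest from the rest of its group, so leaving it out narrows the spread in itself. With any other single library left out, the difference did not pass (edgeR adjusted p from 0.0853 to 0.332).

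Among the secreted products, Olfm4, a glycoprotein of the olfactomedin family and a Notch target in these cells, was by far the most abundant marker (ENSMUSG00000022026, chromosome 14, 80221521 to 80260579, plus strand). Its level ranked 31 among all 29288 genes by mean normalised count. The controls held 40052, 47952 and 26289, the 18h-αGal libraries 23867, 18022 and 5859, and the 72h-αGal libraries 38486, 30580 and 48687 normalised counts. The 18h-αGal and control ranges did not overlap, although the gap between the lowest control and the highest treated library was small beside the spread within either group. The log2 difference at 18 h was -1.25 ± 0.53 (interval -2.51 to 0.02; edgeR adjusted p = 0.245), and at 72 h it was 0.06 ± 0.52.

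Smoc2, a secreted calcium-binding matricellular protein, had a smaller difference (ENSMUSG00000023886, chromosome 17, 14499735 to 14625074, plus strand). Its normalised counts were 2300.6, 2522.9 and 1633.3 in controls, 2031.6, 1713.0 and 976.9 at 18 h, and 2826.4, 2078.6 and 3137.1 at 72 h. The 18h-αGal and control groups overlapped, with a log2 difference of -0.44 ± 0.28 (edgeR adjusted p = 0.426).

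Gkn3, which encodes a secreted protein of the gastrokine family and is counted among the stem cell markers of the proximal small intestine, had the estimate farthest from 0 (ENSMUSG00000030048, chromosome 6, 87360238 to 87365917, minus strand). The controls held 310.1, 493.6 and 116.5 normalised counts, the 18h-αGal libraries 35.31, 17.97 and 5.519, and the 72h-αGal libraries 143.6, 228.9 and 418.7. These values rest on raw counts of 528, 520 and 49 in controls and of 56, 20 and 4 at 18 h, so the lowest of them carries a wide counting error. Every 18h-αGal library was below every library of the other groups. The log2 fold change at 18 h was -3.87 ± 0.72 (interval -5.48 to -2.26; edgeR adjusted p = 0.0146). At 72 h it was -0.21 ± 0.61 (interval -1.58 to 1.15; edgeR adjusted p = 0.989).

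The direction of the Gkn3 difference at 18 h held under all 17 alternatives, with log2 fold changes from -4.62 to -3.36, and its call was lost in 3 of them. Among these were the fit without a filter on low counts (edgeR adjusted p = 0.0563) and the fit without 18h-αGal replicate 2 (edgeR adjusted p = 0.101). Gkn3 is also a gene of the stomach, so 8 gastric and Brunner gland genes were read beside it. The list summed to 137, 228 and 90 normalised counts in controls, 197, 199 and 197 at 18 h, and 79, 126 and 366 at 72 h, and the part of such cells in the Gkn3 values was not tested. On average over the libraries most of the sum was the pepsinogen gene Pgc, detected in all 9 libraries at up to 214.5. Tff2 reached 122.2 but was at 0 in 5 libraries, and Cblif reached 41.3 and was at 0 in 1. Gkn1, Gkn2 and Tff1 were at 0 in 7, 5 and 7 libraries. Of the 8, 2 were tested and 0 called at 18 h by edgeR (2.69% of all genes were called lower and 3.27% higher). None had an unadjusted p under 0.05 (Pgc 0.29 ± 0.42, Cblif 1.73 ± 1.09 on the log2 scale).

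Slc12a2 encodes the sodium-potassium-chloride cotransporter NKCC1 and is carried by crypt base and transit-amplifying cells (ENSMUSG00000024597, chromosome 18, 58011164 to 58080812, plus strand). The controls held 19414, 23818 and 10910 normalised counts, the 18h-αGal libraries 10139, 7440 and 3571, and the 72h-αGal libraries 17833, 16502 and 25394.5. All 18h-αGal values lay below all controls, the highest of the former being close to control replicate 3. The log2 difference was -1.35 ± 0.46 (interval -2.44 to -0.26), with an edgeR adjusted p of 0.154, and DESeq2 on the same counts gave -1.36 with an adjusted p of 0.0289.

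Rgmb encodes a membrane-anchored coreceptor for bone morphogenetic proteins, the signals that oppose the stem cell state higher in the crypt (ENSMUSG00000048027, chromosome 17, 16022655 to 16051513, minus strand). Its normalised counts were 3847.6, 4171.7 and 2883.8 in controls, 2912.4, 2771.2 and 1681.9 at 18 h, and 3238.8, 3567.3 and 5020.2 at 72 h. The 18h-αGal and control groups met at control replicate 3, with a log2 difference of -0.56 ± 0.24 (edgeR adjusted p = 0.218).

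Cdca7, a nuclear protein of dividing cells that works with the chromatin remodeller HELLS, gave 1719.7, 1775.9 and 955.7 normalised counts in controls (ENSMUSG00000055612, chromosome 2, 72306341 to 72317240, plus strand). The 18h-αGal libraries held 1362.6, 1333.9 and 698.2, and the 72h-αGal libraries 1892.8, 1399.9 and 2270.2. The groups overlapped, and the log2 difference at 18 h was -0.39 ± 0.32 (edgeR adjusted p = 0.570).

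Msi1, an RNA-binding regulator of translation in neural and intestinal progenitors, was the only marker with an estimate above 0 at 18 h (ENSMUSG00000054256, chromosome 5, 115567419 to 115593757, plus strand). Controls held 1192.3, 1337.4 and 551.6 normalised counts, 18h-αGal libraries 1532.8, 1248.6 and 608.5, and 72h-αGal libraries 1269.6, 1102.3 and 1571.8. The 3 groups lay over each other, with a log2 difference of 0.14 ± 0.41 at 18 h (interval -0.81 to 1.09; edgeR adjusted p = 0.898).

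**Figure D2:**
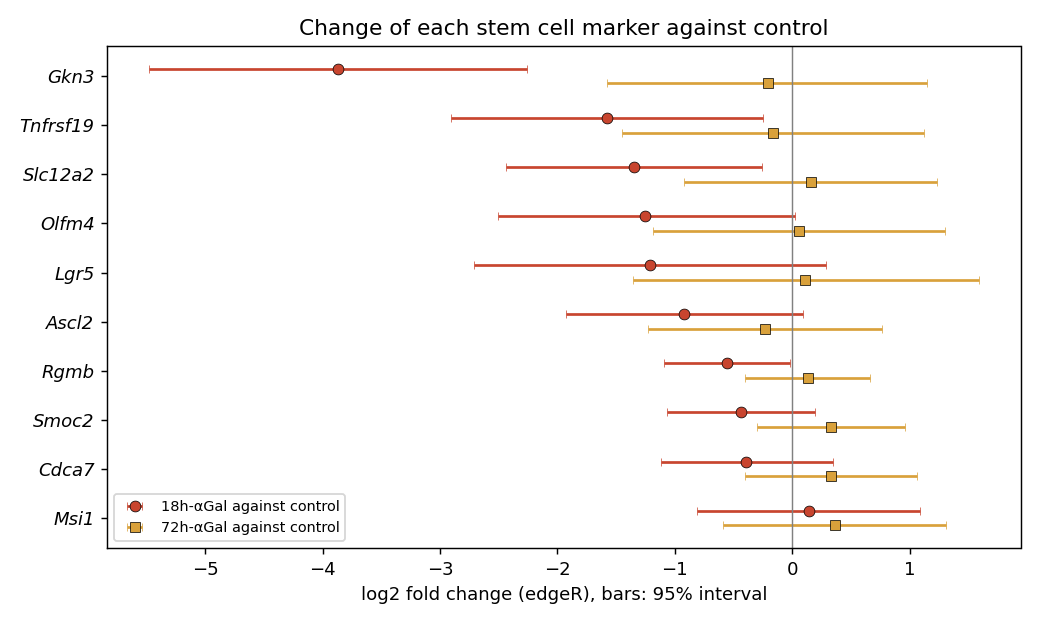
Log2 fold change of each marker against control (x axis) at 18 h (circles) and at 72 h (squares), with bars for the 95% interval of the edgeR fit. The 18 h interval of Gkn3 runs from -5.48 to -2.26 and is the farthest from 0, whereas all 10 of the 72 h intervals include 0.

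The same 10 genes were then read without the shallowest library of the control and 18h-αGal groups. Without control replicate 3 and 18h-αGal replicate 3, a comparison chosen after seeing the data, 4 of 10 markers were called lower at 18 h, against 3.8% of all genes. Gkn3 (log2 fold change -3.87, edgeR adjusted p = 0.00129), Tnfrsf19 (-1.27, edgeR adjusted p = 0.0123), Slc12a2 (-1.29, edgeR adjusted p = 0.0259) and Olfm4 (-1.06, edgeR adjusted p = 0.0350) passed. Their estimates were thus no farther from 0 than with all libraries, while the adjusted p-values were smaller. The libraries left out also held the lowest value of their group for every marker. Leaving them out narrows the spread of these genes in itself, so the smaller p-values are no added support.

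Over the 72 h comparison as a whole, 5 of the 18933 genes were called (0.0264%), none of them a stem cell marker. At an unadjusted p under 0.05 the count among the 10 was also 0, against 5.94% of all genes, and DESeq2 called 0, against 0.133% of genes called lower and 0.0255% called higher. No marker had groups that did not overlap, as 6.3% of genes did downwards and 6.36% upwards. The estimates lay between -0.23 (Ascl2) and 0.36 (Msi1), with 7 of 10 above 0, compared with 50.3% of all genes. The narrowest interval belonged to Rgmb, from -0.40 to 0.66, and the widest to Lgr5.

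Between 18 h and 72 h after αGalCer, Gkn3 rose by 3.65 ± 0.71 on the log2 scale (interval 2.05 to 5.25; edgeR adjusted p = 0.0123), again as the only marker called, against 4.18% of all genes called higher. The same 2 settings ended this call as well, with edgeR adjusted p-values of 0.0526 and 0.0773. All 10 estimates were above 0 (53.4% of all genes), with a median of 1.04 where all genes had 0.05. In 8 of the 10, excepting Ascl2 and Msi1, every 72h-αGal library lay above every 18h-αGal library, which 16.6% of genes did. At an unadjusted p under 0.05, 6 of 10 were higher (11.4% of all genes), DESeq2 called 5 of 10 (6.49%), and 5 of 10 were called without control replicate 3 and 18h-αGal replicate 3 (5.5%). Slc12a2 came nearest to the threshold among the others, at 1.5 ± 0.46 (edgeR adjusted p = 0.0954), followed by Rgmb at 0.69 ± 0.24 (edgeR adjusted p = 0.104). Lgr5 lay at 1.32 ± 0.62 (edgeR adjusted p = 0.263). This comparison and that of 18h-αGal with control use the same 18h-αGal libraries, so the low values of those libraries enter both.

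Relative to Lgr5 in the same library, 7 of the 9 other markers had ratios that overlapped between control and 18h-αGal, and Gkn3 and Msi1 did not. The Gkn3 to Lgr5 ratio was 0.128, 0.152 and 0.125 in controls, 0.0226, 0.0209 and 0.0134 in 18h-αGal libraries, and 0.0716, 0.119 and 0.133 in 72h-αGal libraries. The control ratios lay close together, although the control levels spread 4.237-fold for Gkn3 and 3.477-fold for Lgr5, and the 18h-αGal ratios differed from them by -2.86 on the log2 scale. The Msi1 to Lgr5 ratio was 0.492, 0.413 and 0.592 in controls and 0.980, 1.46 and 1.48 at 18 h, a log2 difference of 1.38 in the other direction. Both sets of ratios were fully apart, which for 3 against 3 gives an exact permutation p of 0.1 (two-sided, 20 arrangements), the smallest that this design allows. After adjustment over the 9 ratios to Lgr5 tested in the comparison, the exact p was 0.36 for either. At 18 h Lgr5 itself lay at -1.21 ± 0.62 and Msi1 at 0.14 ± 0.41, so most of the Msi1 ratio difference lay in the lower Lgr5. How many of all genes had ratios to Lgr5 that were fully apart was not counted.

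By contrast, Slc12a2 tracked Lgr5. Its ratio was 8.01, 7.35 and 11.7 in controls, 6.48, 8.67 and 8.69 at 18 h, and 8.88, 8.54 and 8.05 at 72 h, and the groups overlapped (log2 difference at 18 h -0.17, exact permutation p = 0.6). For Smoc2 (0.75), Rgmb (0.65) and Cdca7 (0.84) the log2 ratio to Lgr5 was higher at 18 h with overlapping groups and an exact permutation p of 0.2 each. Tnfrsf19 lay at -0.88 (exact permutation p = 0.3), Olfm4 at -0.20 and Ascl2 at 0.10.

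**Figure D3:**
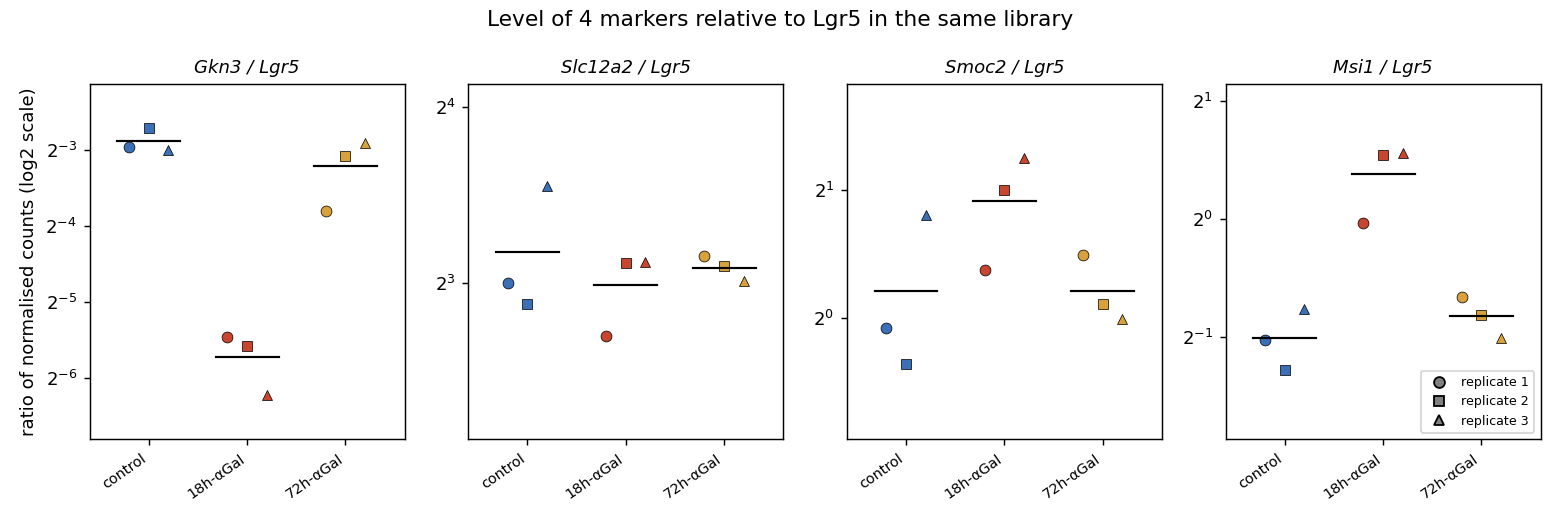
Ratio of the normalised counts of Gkn3, Slc12a2, Smoc2 and Msi1 to that of Lgr5 in the same library (log2 scale, a separate range for each panel), with a symbol for each replicate and a bar at the group mean. The Gkn3 ratio lies between 0.0134 and 0.0226 at 18 h, below all other libraries, and the Msi1 ratio between 0.980 and 1.48, above all others, while the Slc12a2 ratios of the 3 groups overlap.

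The genes whose pattern over the 9 libraries was most like that of Lgr5 were ranked by the root-mean-square difference of log2 values centred on each gene's mean, over 10903 genes with a mean of at least 100 normalised counts. Slc12a2 ranked 1 (0.22), and the nearest genes that were not among the 10 were Adra2a (0.23), Htr4 (0.23), Gm34567 (0.25), Iffo2 (0.27) and Afap1l1 (0.27). Iffo2 was called lower at 18 h (log2 fold change -1.44 ± 0.35, edgeR adjusted p = 0.0327), whereas Adra2a, an adrenergic receptor, lay at -1.31 ± 0.42 (edgeR adjusted p = 0.120). Of the other markers, Olfm4 ranked 8, Ascl2 55, Smoc2 134, Cdca7 136, Rgmb 188, Tnfrsf19 340 and Msi1 488. Gkn3 ranked 9924, with a difference of 1.25. This measure counts the size of a change as well as its direction. Gkn3 and Lgr5 were both lower at 18 h, but by unlike amounts (log2 fold change -3.87 for Gkn3 and -1.21 for Lgr5). A low rank is thus not an opposite pattern. These ranks describe 9 libraries, within each of which all genes share 1 depth factor, and carry no test.

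Levels can be compared between genes only per length, so normalised counts were divided by the annotated exon length in kb. In the controls the order ran from Olfm4 (12767 ± 3674, SD, n = 3) and Slc12a2 (1421 ± 517) through Cdca7 (347), Rgmb (289), Gkn3 (269), Smoc2 (231), Ascl2 (225), Lgr5 (214) and Msi1 (170) to Tnfrsf19 (46.2 ± 12.1). Olfm4, Slc12a2 and Tnfrsf19 were separated from their neighbours by more than the SDs, while from Cdca7 down to Msi1 each neighbour lay within the spread of the next. At 18 h Gkn3 stood ninth, at 17.2 ± 13.1 per kb, overlapping Tnfrsf19 at 15 ± 11.6. At 72 h it was sixth, at 232 ± 124.

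Promoter windows from RefSeq, 250 bases before to 50 after a transcript start, were held for 6 of the 10 genes (9 windows, since Tnfrsf19 and Rgmb have several starts). They are shown for Gkn3 as the marker that was called, and for the windows of Tnfrsf19 and Cdca7 that contain a sequence motif searched for. The RefSeq table is of build GRCm38.p6, and each window matched GRCm39 exactly once, at the positions given. Capitals mark the interferon-γ-activated site TTCNNNGAA or the core letters CTTTGA that TCF factors recognise in Wnt targets, which read TCAAAG on the other strand.
Gkn3, chr6:87365868-87366167, minus strand: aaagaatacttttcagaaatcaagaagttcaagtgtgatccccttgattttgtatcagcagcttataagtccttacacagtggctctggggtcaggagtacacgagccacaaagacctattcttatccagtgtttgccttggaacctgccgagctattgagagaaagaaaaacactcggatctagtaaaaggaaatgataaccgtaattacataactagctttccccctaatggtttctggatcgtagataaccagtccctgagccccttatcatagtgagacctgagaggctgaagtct
Tnfrsf19, chr14:61284255-61284554, minus strand: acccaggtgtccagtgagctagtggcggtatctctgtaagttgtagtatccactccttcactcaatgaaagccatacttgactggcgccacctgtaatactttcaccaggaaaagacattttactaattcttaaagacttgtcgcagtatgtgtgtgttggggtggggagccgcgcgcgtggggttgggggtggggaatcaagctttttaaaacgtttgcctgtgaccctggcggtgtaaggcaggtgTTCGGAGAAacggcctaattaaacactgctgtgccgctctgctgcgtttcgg
Tnfrsf19, chr14:61275387-61275686, minus strand, a downstream start: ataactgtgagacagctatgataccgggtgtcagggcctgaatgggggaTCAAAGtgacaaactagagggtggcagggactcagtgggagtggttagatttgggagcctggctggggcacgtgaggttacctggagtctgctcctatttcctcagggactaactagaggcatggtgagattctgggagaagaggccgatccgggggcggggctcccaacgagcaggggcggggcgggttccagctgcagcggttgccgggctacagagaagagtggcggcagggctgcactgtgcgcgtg
Cdca7, chr2:72306313-72306612, plus strand: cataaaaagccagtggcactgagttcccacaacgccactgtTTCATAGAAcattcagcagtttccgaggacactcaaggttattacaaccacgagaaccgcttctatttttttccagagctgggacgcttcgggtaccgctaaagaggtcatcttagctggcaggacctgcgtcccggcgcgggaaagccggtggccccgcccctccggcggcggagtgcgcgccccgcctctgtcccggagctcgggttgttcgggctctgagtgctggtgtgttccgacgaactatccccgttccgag

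The interferon-γ-activated site letters occurred in 2 of the 9 windows, beginning at position -2 from the start in Tnfrsf19 and at -209 in Cdca7, and in 8.3% of all 32851 promoter windows of the table. The TCF core occurred in 1 of 9, in the downstream Tnfrsf19 window, and in 16% of all. The same window held the E-box CAGCTG (1 of 9, and 16.3% of all), and none of the 3 motifs overlapped another in a window. Both strands were searched. The Gkn3 window held none of the 3 motifs, which says only that these letters are not in this stretch.

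Further genes of the crypt base stem cell programme were read beside the 10. Like all lists here, they were chosen with earlier results of these data known. The shares of all genes set beside the lists therefore describe them and are no independent test. Of 28, all tested, 4 were called lower at 18 h (2.69% of all genes) and 0 higher (3.27%), and 27 had an estimate below 0 (52.4%), with a median log2 fold change of -0.57. Rnf43, the ubiquitin ligase that removes Wnt receptors and is itself a Wnt target, went from 3231.5, 3422.8 and 2249.0 normalised counts in controls to 1614.2, 1449.8 and 1326.0 (log2 fold change -1.01 ± 0.16, edgeR adjusted p = 0.00194). The potassium channel gene Kcnq1 fell by 0.96 ± 0.21 on the log2 scale (edgeR adjusted p = 0.0219), the cytochrome gene Cyp2e1 by 2.43 ± 0.58 (edgeR adjusted p = 0.0228) and the Wnt-responsive factor Sp5 by 1.38 ± 0.37 (edgeR adjusted p = 0.0423).

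Rnf43 was called with a smaller difference than that of Lgr5, and its standard error of 0.16 was smaller than the 0.62 of Lgr5. At 72 h, 0 of the 28 were called against control by edgeR or by DESeq2, and 1, Agr3, had an unadjusted p under 0.05 (log2 fold change -1.48 ± 0.49, edgeR adjusted p = 0.810). Between 18 h and 72 h, 9 of 28 were called higher (4.18% of all genes) and 0 lower, with a median of 0.78. They were Rnf43, Kcnq1, Ephb2, Sp5, Prom1, Clca3b, Axin2, Htr4 and Cyp2e1. Axin2, the negative feedback gene of the Wnt pathway, had 1797.0, 1617.8 and 841.7 normalised counts at 18 h and 4360.0, 3398.8 and 5511.7 at 72 h (log2 fold change 1.64 ± 0.34, edgeR adjusted p = 0.0218), whereas its difference from control at 18 h, -1.33 ± 0.34, did not pass (edgeR adjusted p = 0.0618).

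Among 16 Wnt receptors and transducers, 2 were called lower at 18 h (2.69% of all genes) and 0 higher (3.27%), with a median of -0.15. Lgr4, the R-spondin receptor found throughout the crypt, held 4735.6, 5577.4 and 4716.7 normalised counts in controls and 3927.6, 3627.3 and 3579.1 at 18 h (log2 fold change -0.43 ± 0.11, edgeR adjusted p = 0.0324). Lef1, a factor of the TCF family, was at 0 in all 3 18h-αGal libraries and at 1.76, 43.7 and 11.9 in controls, values low enough that no fold is given (edgeR adjusted p = 0.0451). At 72 h, 0 of 16 were called by edgeR, and 1 had an unadjusted p under 0.05.

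Stem cells divide, and the cell cycle genes were read for that reason. Of 20 proliferation genes, 3 rose at 18 h and 0 fell, against 3.27% of all genes called higher, and 19 of 20 estimates were above 0 (47.6% of all genes), with a median of 0.39. Rrm2, a ribonucleotide reductase subunit, rose by 1.12 ± 0.18 (edgeR adjusted p = 0.00212), the mitotic regulator Birc5 by 0.76 ± 0.18 (edgeR adjusted p = 0.0206) and the cyclin Ccna2 by 0.64 ± 0.16 (edgeR adjusted p = 0.0333). The summed level of the 20 genes was 37215, 44818 and 28334 in controls and 54578, 55286 and 37838 at 18 h, so that 2 of the 3 treated libraries lay above all controls. The Wnt and growth target Myc was at -0.09 ± 0.30.

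Of 7 genes linked to the revival stem cells that appear after damage, 4 were tested. Ly6a rose from 9.40, 36.1 and 117 normalised counts in controls to 1351, 2518 and 1453 at 18 h (log2 fold change 5.37 ± 0.95, edgeR adjusted p = 0.0247). Ccn1, a matricellular YAP target of the same list, fell by 2.00 ± 0.28 (edgeR adjusted p = 0.00423), and Clu, which names that cell state, lay at -1.74 ± 0.79 (edgeR adjusted p = 0.221). Ly6a responds to interferon too, and the part of interferon in its rise was not tested. Of 6 interferon-responsive genes, 5 were called higher at 18 h, against 3.27% of all genes. The guanylate-binding protein gene Gbp2 of that list rose by 4.55 ± 0.47 (edgeR adjusted p = 0.00031).

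The makeup of the sorted cells differed between libraries, and its part in the marker values was not tested. Summed over 15 enterocyte genes, the controls held 268238, 183202 and 463660 normalised counts, the 18h-αGal libraries 292137, 254325 and 395398, and the 72h-αGal libraries 186089, 230066 and 119444. In each group the library with the most enterocyte RNA held the least of the 10 markers, whose sums were 72047, 86169 and 44762 in controls, 43892, 33788 and 13892 at 18 h, and 68289, 57925 and 90381 at 72 h. The marker sum is carried by Olfm4 and Slc12a2, whose control means were 38098 and 18047 normalised counts. Control replicate 3 had the highest enterocyte sum of all 9 libraries. No enterocyte gene was called at 18 h by edgeR, where 2.69% of all genes were called lower and 3.27% higher. Of the 15, 1, Lct, had an unadjusted p under 0.05 (-2.16 ± 0.88), and the median of the 15 was -0.01. At 72 h all 15 estimates were below 0 (49.7% of all genes), with a median of -0.75 and none called by edgeR (3 lower at an unadjusted p under 0.05, as were 3.58% of all genes).

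**Figure D4:**
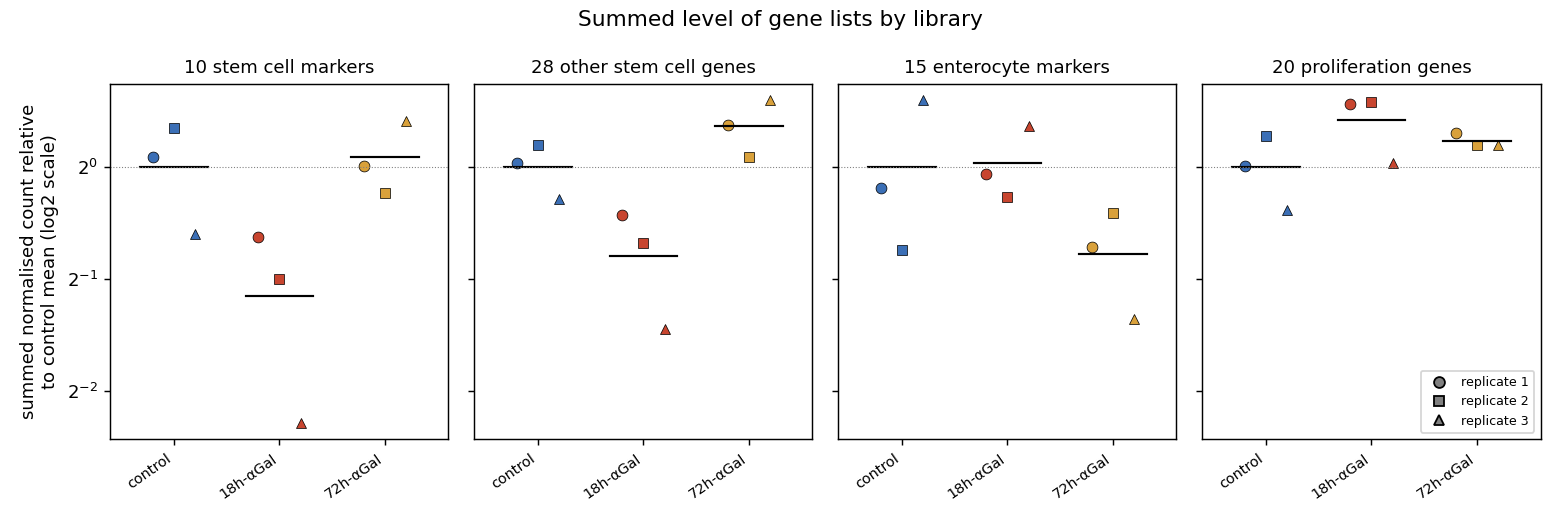
Summed normalised count of 4 gene lists in each library, relative to the control mean (log2 scale), with a symbol for each replicate and a bar at the group mean. The 10 stem cell markers sit at 0.649, 0.499 and 0.205 of the control mean at 18 h, all below the lowest control at 0.662, in a sum made up mostly of Olfm4 and Slc12a2, whereas the proliferation genes sit at 1.029 to 1.503.

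Paneth cells, the neighbours that supply Wnt ligands, showed 0 of 14 genes called at 18 h by edgeR, and the median was 0.40. Over all genes 2.69% were called lower and 3.27% higher, shares at which a list of 14 can well hold 0. The genes at an unadjusted p under 0.05 were 2, Dll4, the Notch ligand (-0.44 ± 0.16, edgeR adjusted p = 0.115), and Reg4 (0.42 ± 0.17, edgeR adjusted p = 0.187). Wnt3 itself lay at -0.29 ± 0.34 (edgeR adjusted p = 0.700). Among the other lineages, 1 of 7 goblet genes (Agr2, 0.66 ± 0.17, edgeR adjusted p = 0.0359), 3 of 8 enteroendocrine genes (Chgb, Chga and Tac1) and 1 of 6 tested tuft genes (Alox5, 1.10 ± 0.28, edgeR adjusted p = 0.0303) were called higher at 18 h, compared with 3.27% of all genes. At 72 h, 5 of 8 enteroendocrine genes were called lower (0.0264% of all genes), Tph1 by 1.32 ± 0.15 on the log2 scale (edgeR adjusted p = 0.00512), and they were the 5 genes called in that comparison.

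Cells outside the epithelium contributed little RNA. Of 12 immune genes 5 were tested, and the list summed to 357 to 537 normalised counts in controls, 418 to 667 at 18 h and 696 to 815 at 72 h, most of it Cd68, while the T cell marker Cd3e was at 0 in 5 libraries. Of 4 erythroid genes only Alas2 was tested, at -0.77 ± 0.62 (edgeR adjusted p = 0.540). Of 9 stromal genes 3 were tested, and the list summed to 84 to 97 in controls, 29 to 41 at 18 h and 39 to 54 at 72 h. The 6 pan-epithelial genes had a median log2 fold change of 0.00 at 18 h and none was called by edgeR, with 1, Cldn7, at an unadjusted p under 0.05 (0.33 ± 0.13). Of 5 genes that mark the position along the intestine, 4 were tested and 0 called at 18 h by edgeR, with 1 at an unadjusted p under 0.05, the duodenal factor Pdx1 (0.63 ± 0.24, edgeR adjusted p = 0.143), while Gata4, a factor of the proximal intestine, lay at -0.06 ± 0.13. With 2.69% of all genes called lower and 3.27% higher at 18 h, lists this small can well hold no called gene.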

How the data were processed

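RNA of sorted small intestinal crypt IECs was measured in 9 libraries from mice, 3 per group, as 100 bp reads of ribosomal RNA-depleted directional libraries. The authors deposited a raw read count per gene and library, and a normalised signal that equals the count divided by a DESeq2 size factor. The submitters' processing notes list HISAT2, featureCounts, Subread and DESeq2 1.42.0, and builds GRCm38 and mm10, whereas the study's methods name GRCm39. The strand setting was not given in the sources used here, so reads of genes with overlapping exons (small stretches in Lgr5, Olfm4, Smoc2, Tnfrsf19 and Msi1) may have been exchanged. Between 68.8 and 72% of counts from 1 to 19 were even, so a step of 2 is common and the number of independent fragments may be smaller than the count. Symbols and positions are from GENCODE vM39 (GRCm39), which matched 28480 identifiers and not the other 808. No protein sequences were used here.

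Counts were fitted with edgeR 4.0.16 in R 4.3.3 (filterByExpr, TMM scaling, robust quasi-likelihood F test), all 9 libraries in 1 fit of the 3 group means, and the fit was tested on simulated data. Alternatives were DESeq2 1.42.0, limma 3.58.1 on log2(normalised count + 1), other scalings, no filter, only the groups compared, the replicate number as a block, and each library left out. Ratios to Lgr5 were compared by an exact permutation test of the mean log2 ratio. Replicates of a group differed beyond sampling noise (chi-square per degree of freedom 14.2 to 47.5 over 9 pairs), so none was counted as a duplicate.

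The 10 markers were named in full. From each other gene list, called genes were named (at most 5 by adjusted p, per comparison with control), or up to 3 by unadjusted p where none was called. Of 1 list of interferon-responsive genes, only Gbp2 is named here. The markers and lists were chosen with earlier results of these data known.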

Additional observations from a re-analysis of the deposited data

Results flagged for a closer look

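The αGalCer difference of Gkn3 was not the same at the 2 times after injection. Its log2 fold change against control was -3.87 ± 0.72 at 18 h and -0.21 ± 0.61 at 72 h. Both use the same controls, so the difference between them is the comparison of the 72h-αGal with the 18h-αGal libraries, which was 3.65 ± 0.71 (edgeR adjusted p = 0.0123), with 3 of 3 libraries at 72 h above 3 of 3 at 18 h. The adjusted p over the 17 alternatives ran from 7.75e-05 to 0.0773. No PBS libraries of 72 h were analysed, so treatment and time cannot be told apart in this value.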

How the results depend on the processing

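The count of stem cell markers called at 18 h (1) became 2 with DESeq2 (Gkn3 and Slc12a2), 0 without the filter on low counts, 0 with the replicate block (Gkn3, edgeR adjusted p = 0.0595) and 4 without control replicate 3 and 18h-αGal replicate 3, a setting chosen after seeing the data. It ran from 0 to 2 when each library was left out (0 without 18h-αGal replicate 2, and 2 without 18h-αGal replicate 3). Between 72 h and 18 h (1) it became 5 with DESeq2 (Gkn3, Olfm4, Rgmb, Slc12a2 and Smoc2), 0 without the filter and 5 without both libraries (Gkn3, Olfm4, Slc12a2, Smoc2 and Tnfrsf19), and ran from 0 to 1 when each library was left out (0 without 18h-αGal replicate 2). At 72 h against control it was 0 in all 17 alternatives. The 28 other stem cell genes called at 18 h (4) became 10 with DESeq2, 2 with the replicate block and 9 without both libraries, and ran from 1 to 8 when each was left out: 1 without control replicate 2 or 18h-αGal replicate 2, 2 without control replicate 1 or 18h-αGal replicate 3, and 8 without control replicate 3 or 18h-αGal replicate 1. Between 72 h and 18 h (9) they ran from 4 to 12, with 4 without 72h-αGal replicate 3 and 5 without 72h-αGal replicate 1 or 18h-αGal replicate 2. Over all genes, the number called in either direction at 18 h (1128) was 1665 with DESeq2, 781 with the replicate block and 1686 without both libraries. It was 489, 680 and 1550 without control replicates 1, 2 and 3, and 807, 432 and 1126 without 18h-αGal replicates 1, 2 and 3. Between 72 h and 18 h (1936) it was 831 without 72h-αGal replicate 3. It was 1107 without 72h-αGal replicate 1 and 940 without 18h-αGal replicate 2. The cause was not tested.

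Signs turned only for estimates near 0. Without both libraries, the 72 h log2 fold change was -0.24 for Lgr5, -0.15 for Olfm4, -0.10 for Slc12a2 and -0.01 for Rgmb, and Msi1 between 72 h and 18 h was -0.07. With each library left out, the 72 h values ran from -0.24 to 0.50 for Lgr5, -0.15 to 0.26 for Olfm4, -0.73 to 0.30 for Gkn3, -0.10 to 0.41 for Slc12a2, -0.34 to 0.06 for Tnfrsf19 and -0.09 to 0.26 for Rgmb. Msi1 ran from -0.15 to 0.44 at 18 h and from -0.07 to 0.51 between the times. At 18 h the estimates of the other 9 markers stayed below 0 in all 17 alternatives.

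Replicate numbers recur in the labels, which do not say whether same-numbered libraries were handled together. The correlations of their deviations ran from -0.17 to 0.09 over 9 pairs, and 3 libraries a group are too few to exclude a pairing. The main fit therefore used no pairing, and the replicate block is given as a setting. Scaling by library totals alone moved the median of all genes between 72 h and 18 h to 0.12. With 3 libraries a group and a common dispersion of 0.123, the Lgr5 difference at 18 h was not resolved, and Gkn3 rests on as few as 4 raw counts in a library.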
